A study of Mus musculus with 8 samples.

Results

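Expression of 10 genes connected with regulatory T cells was examined in endogenous CD8+ T-cell preparations from tumor-bearing mice that had received a CD4-depleting antibody. The genes were *Foxp3*, *Cd4*, *Ikzf2*, *Ikzf4*, *Il10*, *Lrrc32*, *Gpr83*, *Entpd1*, *Nt5e* and *Capg*, chosen by name, and each matched exactly 1 of the 47493 genes of the expression table. The study asked what distinguishes endogenous CD8+ T cells with high IL-18Rα, the binding chain of the interleukin-18 receptor, from the remaining endogenous CD8+ T cells. There were 8 libraries from 4 mice, since every mouse gave 1 IL-18Rαhi-enriched library and 1 library of the column flow-through, the control.

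All mice were female C57BL/6 animals, 6 to 8 weeks old per the labels, and both fractions came from the same treatment. The animals received B16F10 melanoma cells intradermally on day 0, cyclophosphamide (300 mg/kg) on day 3, and Pmel-1 cells on day 5. Pmel-1 cells are CD8+ T cells with a transgenic receptor for a melanocyte antigen and carry Thy1.1. IL-2 followed daily for 3 days, and 200 µg of the anti-CD4 antibody GK1.5 was injected weekly for 3 weeks from day 10. On day 25, Thy1.1-negative CD8+ T cells were isolated from inguinal lymph nodes and spleen with Thy1.1 beads and a negative-selection kit, which removes cells other than CD8+ T cells, and a PE-labeled antibody with PE beads retained the IL-18Rαhi cells. No library of the 8 came from a mouse without anti-CD4, so every comparison here is between the fractions and none is about the depletion itself. In bulk libraries such as these, fewer cells of a type and less RNA per cell cannot be told apart.

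Regulatory T cells are a CD4+ lineage that restrains immune responses, and the transcription factor Foxp3 defines them. Helios (*Ikzf2*) and Eos (*Ikzf4*) are Ikaros-family zinc finger proteins found in these cells, GARP (*Lrrc32*) holds latent TGF-β on their surface, and IL-10 is one of their secreted inhibitory cytokines. CD39 (*Entpd1*) and CD73 (*Nt5e*) act in sequence on extracellular ATP and AMP to give adenosine. GPR83 is a G-protein-coupled receptor known from regulatory T-cell profiles, and CapG caps actin filaments. None of the 10 genes is exclusive to that lineage: CD73 is found on many CD8+ T cells, CD39, GARP and IL-10 also occur on or in other leukocytes, and CD4 is carried by helper T cells and, in mice, by some dendritic cells.

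The start regions of *Foxp3*, which had the largest fitted difference between the fractions among the 10 genes, and of *Gpr83*, the gene among them that was lower in the enriched fraction, are printed for orientation. They come from RefSeq on the build GRCm38.p6 and hold the 300 bases around an annotated start, most of them before it, on the plus strand. Capitals mark GGAAA or TATAAA, on either strand (so that TTTCC is GGAAA read on the other strand).
Foxp3 start region, chrX:7579426-7579725: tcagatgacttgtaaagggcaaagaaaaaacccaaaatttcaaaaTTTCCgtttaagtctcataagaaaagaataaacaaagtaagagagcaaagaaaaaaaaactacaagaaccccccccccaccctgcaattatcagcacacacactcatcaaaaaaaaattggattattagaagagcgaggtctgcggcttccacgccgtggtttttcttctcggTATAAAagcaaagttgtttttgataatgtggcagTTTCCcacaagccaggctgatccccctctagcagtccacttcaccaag
Foxp3 second start region, chrX:7580233-7580532: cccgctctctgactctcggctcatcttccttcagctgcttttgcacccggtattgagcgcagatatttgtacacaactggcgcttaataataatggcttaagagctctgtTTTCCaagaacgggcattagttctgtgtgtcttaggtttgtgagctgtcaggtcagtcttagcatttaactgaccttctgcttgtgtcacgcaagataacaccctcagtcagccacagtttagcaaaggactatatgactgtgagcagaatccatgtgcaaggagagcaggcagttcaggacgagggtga
Gpr83 start region, chr9:14859960-14860259: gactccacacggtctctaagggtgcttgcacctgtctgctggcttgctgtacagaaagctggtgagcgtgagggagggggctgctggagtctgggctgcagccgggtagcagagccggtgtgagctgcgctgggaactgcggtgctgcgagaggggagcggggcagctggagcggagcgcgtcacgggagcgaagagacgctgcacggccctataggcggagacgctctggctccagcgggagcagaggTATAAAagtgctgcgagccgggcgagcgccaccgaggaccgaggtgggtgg

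Both strands were searched for GGAAA, the core of sites for NFAT and Ets factors, for TTCNNNGAA, the form bound by STAT factors, for TGANTCA, the form bound by AP-1, and for TATAAA, the TATA box. The first *Foxp3* region held GGAAA at 2 places and TATAAA at 1, and the second held GGAAA at 1 place, overlapped by 1 match to TTCNNNGAA. In *Gpr83*, 1 TATAAA was the only match, in a region with 24 CpG dinucleotides against a median of 7 over all 32851 start regions. Of all these regions, 61.3% held GGAAA, 8.3% TTCNNNGAA, 7.81% TGANTCA and 13.6% TATAAA, so the letters found are common and are given as a description only. Start regions were matched for 5 of the 10 genes (*Capg*, *Gpr83*, *Nt5e*, *Entpd1* and *Foxp3*).

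The values are FPKM, fragment numbers scaled by transcript length and by library size, as the authors computed them with Cufflinks. Total FPKM per library lay between 656715 and 711678, and 11706 to 12288 genes reached 1 FPKM. The sequencing depth behind the values is unknown. *Il18r1*, which encodes the chain used for enrichment, lay between 22.2 and 37.2 FPKM in flow-through cells and between 106.6 and 116.0 FPKM in the enriched libraries, without overlap. *Cd8a* and the CD3 genes marked all 8 libraries as T cells, but *Cd8a* was at 179.2 FPKM in flow-through library 1 whereas flow-through libraries 2 to 4 had 297.0 to 344.7 FPKM and the enriched ones 360.8 to 385.0 FPKM. That library also had the highest sum of 7 erythroid marker genes (2354 FPKM, where flow-through libraries 2 to 4 had 825 to 1364 FPKM). Results are therefore also given after scaling each library to its T-cell genes and without mouse 1.

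*Foxp3*, *Cd4*, *Entpd1*, *Nt5e* and *Capg* were higher in IL-18Rαhi-enriched cells, with mean FPKM ratios of enriched to flow-through between 1.53 for *Nt5e* and 5.93 for *Cd4* (n = 4 mice). *Ikzf2* and *Ikzf4* had higher means in the enriched fraction without passing the test of unpaired libraries, and *Il10* was not called. *Gpr83* was the single gene of the 10 with a lower level in every enriched library than in any flow-through library. By limma on log2(FPKM + 1), with p-values adjusted over the 12166 genes whose mean reached 1 FPKM and a threshold of 0.05, 5 of the 7 genes above that minimum were higher and 0 were lower. Of all genes tested, 14.1% were called higher and 13.7% lower. The median log2 fold change was 0.97 over these 7 genes and -0.02 over all genes tested. *Il10*, *Lrrc32* and *Gpr83* had means under 1 FPKM and are given by their values and an exact permutation test, for which 0.0286 is the smallest possible p with 4 libraries against 4.

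**Figure D1:**
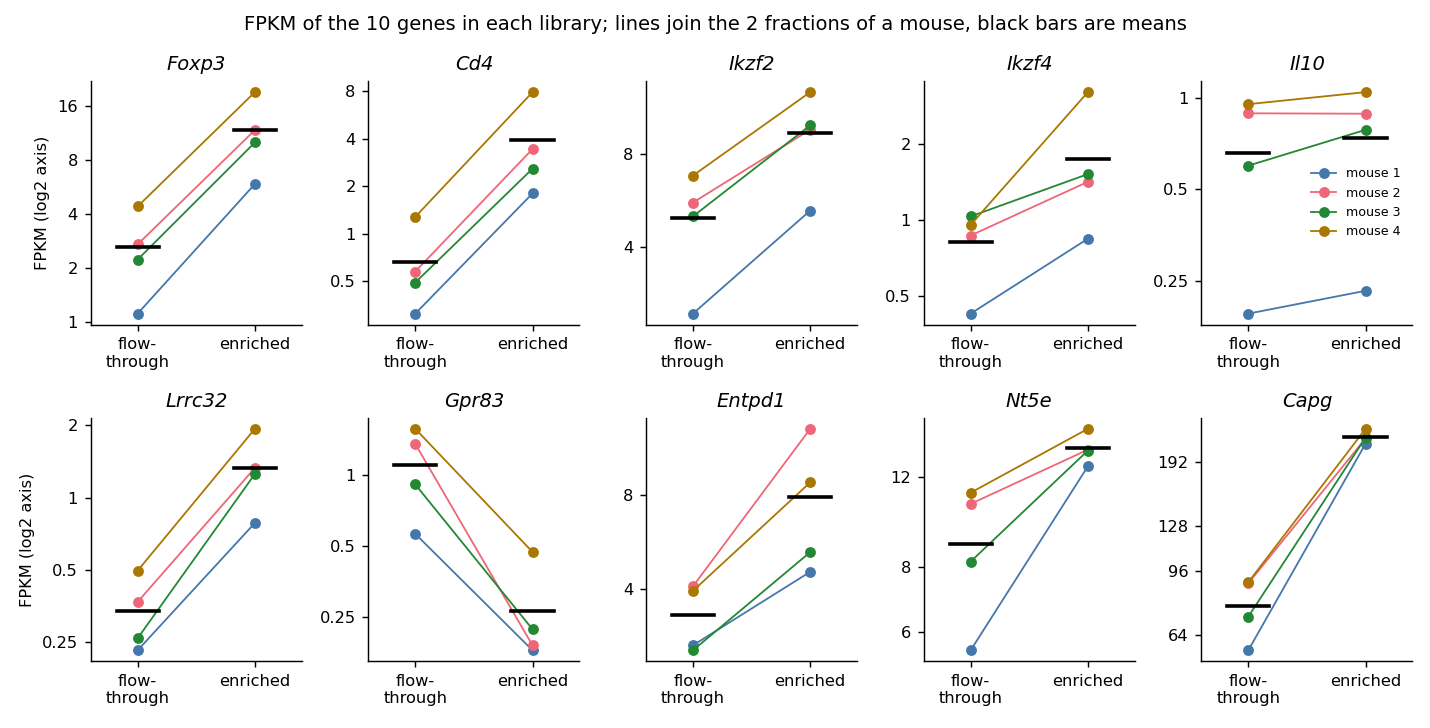
FPKM of each gene in flow-through cells and IL-18Rαhi-enriched libraries, on log2 axes that differ between panels, with a line joining the 2 libraries of each of 4 mice and black bars for the means. All lines rise for 8 genes, 1 of the 4 lines for *Il10* is almost flat, and the 4 lines for *Gpr83* fall.

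Of the 10 genes, *Foxp3* and *Cd4* had the largest ratios between the fractions. *Foxp3* (ENSMUSG00000039521, GRCm38, chromosome X, 7573644 to 7595245, plus strand, 10 annotated transcripts) was at 1.12, 2.71, 2.23 and 4.4 FPKM in the flow-through of mice 1 to 4 and at 5.86, 11.7, 9.98 and 19.0 FPKM in their enriched cells. The lowest enriched library thus lay above the highest flow-through library, while mouse 4 had the highest value and mouse 1 the lowest in both fractions. Means were 2.62 ± 1.37 and 11.6 ± 5.48 FPKM (SD, n = 4), a ratio of 4.45, and the log2 fold change was 1.78 ± 0.361 (SE) with a 95% interval from 0.956 to 2.60 and a limma adjusted p of 0.00919. Within a mouse, the enriched library held between 4.31 and 5.24 times the *Foxp3* of its flow-through, a narrower range than the 3.93-fold difference between mice 1 and 4 in the flow-through. The *Foxp3* locus overlaps genes on the other strand, among them *Ccdc22*, and the estimates were made without strand by the default of the authors' tool, so reads of the shared parts are uncertain. *Ccdc22* went from 18.3 FPKM in the flow-through to 12.8 FPKM in the enriched cells, the opposite direction to *Foxp3*.

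*Cd4* (ENSMUSG00000023274, chromosome 6, 124864692 to 124888221, minus strand), the gene of the co-receptor that the antibody binds, was low throughout. It was at 0.310, 0.574, 0.489 and 1.28 FPKM in the flow-through of mice 1 to 4 and at 1.80, 3.44, 2.58 and 7.90 FPKM in the enriched libraries, again without overlap. The mean went from 0.662 ± 0.423 to 3.93 ± 2.73 FPKM, a ratio of 5.93, with a log2 fold change of 1.46 ± 0.346, a 95% interval from 0.667 to 2.24 and a limma adjusted p of 0.0168. The pseudocount of 1 makes this fold change smaller than the ratio of means. The ratio was alike in the 4 mice, between 5.28 and 6.19.

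*Foxp3* exceeded *Cd4* in 8 of 8 libraries on the FPKM scale, which is per transcript length. The quotient of *Foxp3* to *Cd4* was 4.09 ± 0.651 in flow-through cells and 3.23 ± 0.610 in the enriched cells, and it was lower in the enriched library in 4 of 4 mice, although the unpaired test did not pass (exact permutation p = 0.143, 0.229 after adjustment over 8 quotients). *Cd8a* FPKM was 512 ± 166 times *Cd4* in flow-through cells and 129 ± 70.9 times in the enriched fraction, with 45.7 in enriched library 4 as the lowest quotient. *Cd8a* was 124 ± 35 times *Foxp3* in flow-through cells and 38.6 ± 19.7 times in the enriched fraction. Neither quotient overlapped between the fractions, with the smallest possible exact permutation p of 0.0286, which became 0.0571 after adjustment over the 8 quotients.

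The Ikaros-family genes moved less than *Foxp3*. *Ikzf2* (ENSMUSG00000025997, chromosome 1, 69531214 to 69687245, minus strand), which encodes Helios, was at 2.42, 5.57, 5.02 and 6.82 FPKM in flow-through cells and at 5.24, 9.63, 9.95 and 12.8 FPKM in the enriched libraries of mice 1 to 4. The fractions overlapped, because the enriched library of mouse 1 lay below the flow-through of mice 2 and 4. Means were 4.96 ± 1.85 and 9.40 ± 3.11 FPKM, a ratio of 1.90, and the log2 fold change of 0.81 ± 0.304 (95% interval 0.118 to 1.5) had a limma adjusted p of 0.078. The enriched library was the higher one in each of the 4 mice, by 1.73 to 2.17 times. With the mouse as replicate block, which compares the fractions within each animal, the SE fell to 0.0794 and the limma adjusted p was 0.000637.

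*Ikzf4* (ENSMUSG00000002578, chromosome 10, 128630843 to 128645991, minus strand), which encodes Eos, a partner of Foxp3 in gene silencing, was close to 1 FPKM. Its values were 0.427, 0.868, 1.03 and 0.956 FPKM in flow-through cells and 0.843, 1.41, 1.52 and 3.20 FPKM in the enriched libraries. Enriched library 1 lay inside the range of the flow-through, and enriched library 4 stood highest. The log2 fold change was 0.54 ± 0.250 (95% interval -0.03 to 1.11, limma adjusted p = 0.141), and the limma adjusted p with the replicate block was 0.0381. Ratios within a mouse ran from 1.47 to 3.34. The quotient of *Ikzf2* to *Ikzf4* was 6.01 ± 0.978 in flow-through cells and 5.89 ± 1.29 in the enriched cells, and this difference did not pass (exact permutation p = 0.83). The quotient of *Ikzf2* to *Foxp3* was 2.0 ± 0.312 in flow-through cells and 0.847 ± 0.136 in the enriched fraction, so *Ikzf2* was above *Foxp3* in every flow-through library and below it in every enriched library (exact permutation p = 0.0286, adjusted over the 8 quotients 0.0571).

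**Figure D2:**
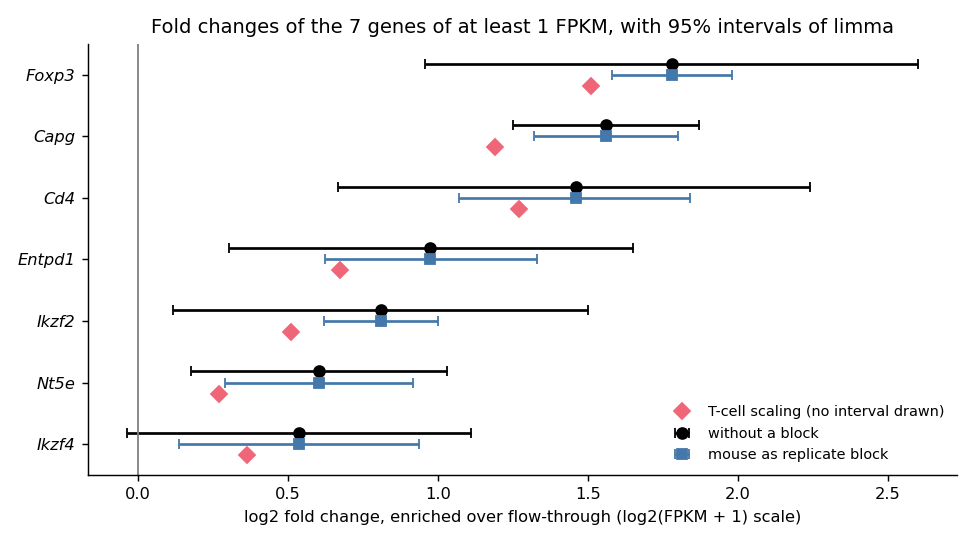
Log2 fold change, enriched over flow-through, of the 7 genes whose mean reached 1 FPKM (horizontal axis, log2(FPKM + 1) scale). Black circles with 95% intervals are the fit without a block, blue squares the fit with the mouse as replicate block and red diamonds the estimate after T-cell scaling, and the black interval reaches 0 for *Ikzf4* alone.

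With the replicate block, 7 of the 7 genes above the minimum were called higher, against 22.2% of all genes tested. Without a minimum level, where 22789 genes were tested by limma, 4 of the 10 genes (*Foxp3*, *Cd4*, *Lrrc32* and *Capg*) were called higher and 1 (*Gpr83*) lower, beside 7.32% and 5.63% of all genes. The libraries of the fractions did not overlap for 6 genes in the direction of the enriched cells and for 1 in the other direction, beside 15.9% and 15.3% of all genes whose mean reached 0.5 FPKM.

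Of the secreted and surface molecules, *Lrrc32* was higher in the enriched cells and *Il10* was not called. *Lrrc32* (ENSMUSG00000090958, chromosome 7, 98489283 to 98502181, plus strand) was at 0.231, 0.368, 0.259 and 0.496 FPKM in flow-through cells and at 0.784, 1.33, 1.25 and 1.93 FPKM in the enriched libraries of mice 1 to 4. All 4 enriched values lay above all 4 flow-through values. The means were 0.339 ± 0.120 and 1.33 ± 0.472 FPKM, a ratio of 3.92, and the difference of mean log2(FPKM + 1) was 0.78 (exact permutation p = 0.0286; limma adjusted p = 0.0164 without the minimum level). *Foxp3* FPKM was 7.43 ± 1.84 times *Lrrc32* in flow-through cells and 8.51 ± 1.03 times in the enriched fraction, a difference that did not pass (exact permutation p = 0.371, adjusted 0.424).

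*Il10* (ENSMUSG00000016529, chromosome 1, 131019845 to 131024974, plus strand, 1 annotated transcript) was at 0.195, 0.891, 0.599 and 0.955 FPKM in flow-through cells and at 0.232, 0.888, 0.786 and 1.05 FPKM in the enriched libraries. The fractions covered almost the same range, and mouse 1 was the low animal in both. Means were 0.660 ± 0.346 and 0.738 ± 0.354 FPKM, with a difference of mean log2(FPKM + 1) of 0.07, exact permutation p of 0.743 and limma adjusted p of 0.86 without the minimum level. The 95% interval of that difference ran from -0.414 to 0.548, so a change of either sign within it is possible. Its sign turned without flow-through library 1 (-0.08), without enriched library 4 (-0.02) and after T-cell scaling (-0.03). Since *Foxp3* rose and *Il10* was not called, the quotient of *Foxp3* to *Il10* was 4.28 ± 1.16 in flow-through cells and 17.3 ± 5.85 in the enriched fraction, without overlap (exact permutation p = 0.0286, adjusted over the 8 quotients 0.0571).

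*Gpr83* (ENSMUSG00000031932, chromosome 9, 14860210 to 14870789, plus strand) went the other way. It was at 0.562, 1.35, 0.910 and 1.57 FPKM in flow-through cells and at 0.180, 0.189, 0.221 and 0.471 FPKM in the enriched libraries. Every enriched value lay below every flow-through value, with enriched library 4 closest to the flow-through. The means were 1.10 ± 0.450 and 0.265 ± 0.138 FPKM, so the flow-through was 4.14 times higher, and the difference of mean log2(FPKM + 1) was -0.71 (exact permutation p = 0.0286; limma adjusted p = 0.0285 without the minimum level). In each of the 4 mice the enriched library held 0.14 to 0.32 of the level of its flow-through.

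**Figure D3:**
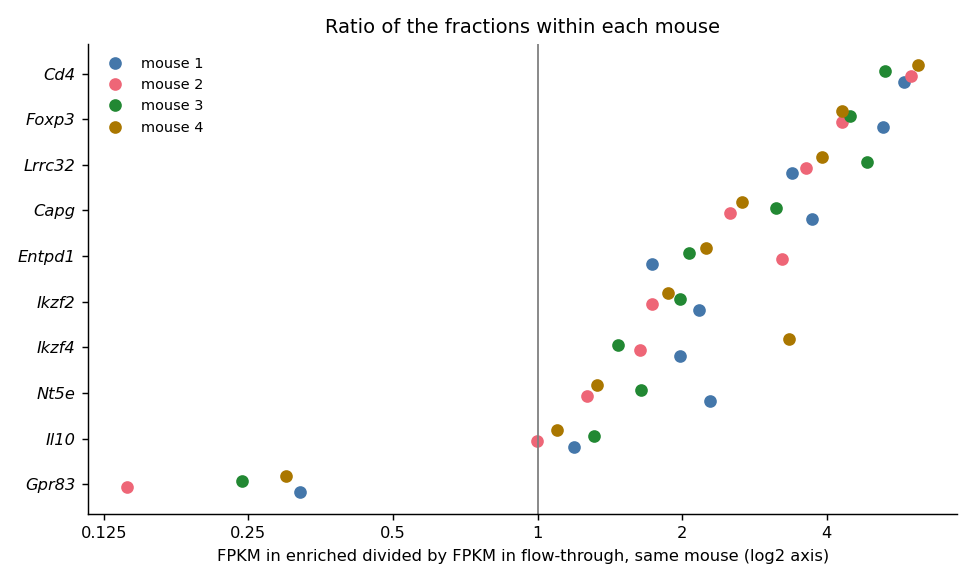
FPKM in the enriched library divided by FPKM in the flow-through library of the same mouse (horizontal axis, log2) for each gene, with 1 point per mouse and a grey line at 1. *Cd4* points lie between 5.28 and 6.19 and *Foxp3* points between 4.31 and 5.24, *Il10* points lie around 1, and *Gpr83* points lie between 0.14 and 0.32.

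The ectonucleotidases were both higher in the enriched cells, by smaller ratios. *Entpd1* (ENSMUSG00000048120, chromosome 19, 40612366 to 40741602, plus strand), encoding CD39, was at 2.63, 4.07, 2.53 and 3.94 FPKM in flow-through cells and at 4.54, 13.1, 5.25 and 8.81 FPKM in the enriched libraries. The fractions did not overlap, and mouse 2, not mouse 4, had the highest level in both. Means were 3.29 ± 0.825 and 7.93 ± 3.93 FPKM, a ratio of 2.41, with a log2 fold change of 0.97 ± 0.294 (95% interval 0.304 to 1.65, limma adjusted p = 0.0393). The call was lost after T-cell scaling (0.68, adjusted p = 0.123), where the fractions overlapped, and when any 1 of flow-through libraries 1, 3 and 4 or enriched libraries 2 and 4 was left out (adjusted p from 0.0543 to 0.103).

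*Nt5e* (ENSMUSG00000032420, chromosome 9, 88327197 to 88372092, plus strand), encoding CD73, was at 5.52, 10.6, 8.21 and 11.2 FPKM in flow-through cells and at 12.6, 13.5, 13.5 and 14.9 FPKM in the enriched libraries. The enriched libraries were close together, and the flow-through spread over a factor of 2.02 between mice 1 and 4. Means were 8.88 ± 2.58 and 13.6 ± 0.945 FPKM, a ratio of 1.53, with a log2 fold change of 0.60 ± 0.187 (95% interval 0.177 to 1.03, limma adjusted p = 0.0432). This call too was lost after T-cell scaling (0.27, adjusted p = 0.181), and when flow-through library 3 or any 1 of the 4 enriched libraries was left out (adjusted p from 0.0646 to 0.107). The quotient of *Nt5e* to *Entpd1* was 2.7 ± 0.476 in flow-through cells and 2.01 ± 0.806 in the enriched fraction (exact permutation p = 0.2, adjusted 0.267).

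*Capg* (ENSMUSG00000056737, chromosome 6, 72544391 to 72562983, plus strand) was the most abundant of the 10 genes and the one with the smallest adjusted p in the fit without a block. It was at 57.9, 88.7, 71.7 and 89.3 FPKM in flow-through cells and at 215.9, 223.4, 224.4 and 237.4 FPKM in the enriched libraries. The enriched values differed by a factor of 1.1 between mice 1 and 4 and lay far above the flow-through. Means were 76.9 ± 15.1 and 225.3 ± 8.93 FPKM, a ratio of 2.93, with a log2 fold change of 1.56 ± 0.137 (95% interval 1.25 to 1.87, limma adjusted p = 0.000391).

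Compared per transcript length, the order of mean levels in the enriched fraction was *Capg*, *Nt5e*, *Foxp3*, *Ikzf2*, *Entpd1*, *Cd4*, *Ikzf4*, *Lrrc32*, *Il10* and *Gpr83*. Only *Capg* and *Nt5e* were neighbours whose ranges over the 4 libraries did not overlap. In the flow-through the order was *Capg*, *Nt5e*, *Ikzf2*, *Entpd1*, *Foxp3*, *Gpr83*, *Ikzf4*, *Cd4*, *Il10* and *Lrrc32*, again with *Capg* and *Nt5e* as the only neighbours without overlap. *Gpr83* was thus last in the enriched cells and just after *Foxp3* in the flow-through.

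The 4 mice kept their rank for many of these genes. *Foxp3*, *Cd4*, *Il10*, *Lrrc32* and *Nt5e* had the same order in both fractions, with mouse 1 lowest, then mice 3 and 2, and mouse 4 highest. Of all genes whose mean reached 0.5 FPKM, 15.7% had the same order of mice in both fractions, whichever that order was. Mouse 1 was lowest and mouse 4 highest in both fractions for 8 of the 10 genes, beside 7.02% of all genes. After T-cell scaling that held for 4 of the 10 (*Foxp3*, *Ikzf2*, *Il10* and *Gpr83*) beside 1.44% of all genes. The difference between mice 4 and 1 was 3.93-fold in flow-through cells and 3.24-fold in the enriched cells for *Foxp3*, 4.11-fold and 4.39-fold for *Cd4*, and 4.9-fold and 4.51-fold for *Il10*. For *Capg* it was 1.54-fold and 1.1-fold. These are 4 animals of 1 treatment group, so the ranks are a description with no test.

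The profile over the 8 libraries was compared with that of other tested genes of like level, by the root mean square difference of log2(FPKM + 1) after subtraction of the flow-through mean. Nearest to *Foxp3* among 6661 genes were *Asb2* (0.198), *Ifi205* (0.208), *Klrb1c* (0.225), *Il2ra* (0.234) and *Mycl* (0.238). *Il2ra* encodes CD25, the IL-2 receptor chain that regulatory T cells carry at high level, and *Klrb1c* encodes the NK1.1 antigen of NK cells. Nearest to *Cd4* among 3643 genes were *Penk* (0.2), *Slamf8* (0.209), *Sdc4* (0.213), *Klre1* (0.216) and *Rasgrp4* (0.218). *Klre1* is a receptor gene of NK cells. Nearest to *Ikzf2* among 6668 genes were *Lrrk2* (0.0898), *Pear1* (0.126), *Slfn5* (0.131), *Myo1e* (0.133) and *Ccnd1* (0.145).

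Other genes associated with regulatory T cells were mostly higher in the enriched fraction. Of 25 such genes, 23 had a mean of at least 1 FPKM, and 18 of these were called higher and 1 lower by limma, beside 14.1% and 13.7% of all genes. The median log2 fold change of the 23 was 1.10. *Ccr8*, a chemokine receptor, went from 2.35 ± 0.783 to 13.3 ± 1.48 FPKM (log2 fold change 2.12). *Il2ra* went from 3.57 ± 1.51 to 15.6 ± 4.36 FPKM (1.90), *Maf*, a transcription factor, from 2.80 ± 0.787 to 11.3 ± 1.34 FPKM (1.71) and *Nrp1*, a surface receptor, from 4.34 ± 1.45 to 15.5 ± 1.33 FPKM (1.66). *Ctla4*, an inhibitory receptor of regulatory and activated T cells and the gene at the median of the list, went from 8.07 ± 2.54 to 18.3 ± 5.18 FPKM (1.10). The gene called lower was *Il1rl1*, which encodes the IL-33 receptor ST2, with 8.29 ± 2.53 FPKM in flow-through cells and 4.75 ± 0.495 FPKM in the enriched cells (limma adjusted p = 0.0336). *Izumo1r* (0.20), *Swap70* (0.12), *Il12a* (-0.23) and *Rgs1* (0.77) did not pass (log2 fold changes, limma adjusted p from 0.0961 to 0.563), and *Areg* and *Plagl1* were under the minimum level. After T-cell scaling 15 genes of the list were called higher and 0 lower, beside 518 and 1203 of all 12166 genes tested. The *Il1rl1* estimate was then further below 0 (-0.98) but missed the threshold (limma adjusted p = 0.0663), and the estimates for *Izumo1r* (-0.15) and *Swap70* (-0.21) turned negative. Activated CD8+ T cells also express many of the 25 genes, so the list does not separate the lineages.

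Of 10 genes of CD4 helper cells, 7 reached the minimum level (median log2 fold change 0.45). Of these, 3 were called higher and 0 lower, beside 14.1% and 13.7% of all genes. *Cd40lg*, the ligand by which helper cells act on CD40, went from 3.13 to 15.6 FPKM (2.04), *Gata3*, a transcription factor of type 2 helper cells that other T cells also express, from 12.7 to 32.0 FPKM (1.31), and *Zbtb7b*, the factor ThPOK of CD4 lineage choice, from 9.58 to 23.6 FPKM (1.22). *Bcl6*, at the median, did not pass (0.45, limma adjusted p = 0.136), but did with the replicate block (0.00705). *Cxcr5*, a chemokine receptor of follicular helper and B cells, was not called in the fit without a block (-0.39, limma adjusted p = 0.121) and was called lower with the block (0.0287) and after T-cell scaling (-0.65, 0.0416). *Il4* (0.03, limma adjusted p = 0.937) and *Tnfsf8* (-0.02, limma adjusted p = 0.943) did not pass. Their estimates after T-cell scaling were -0.20 and -0.36, also without passing. *Il21*, *Il5* and *Il13* were under the minimum level. The paper also counts *Cd40lg* among markers of innate-like T cells.

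Around the ectonucleotidases, 11 of 15 genes of adenosine and extracellular ATP reached the minimum level. Of these, 2 were called higher and 4 lower, beside 14.1% and 13.7% of all genes, with a median log2 fold change of -0.21. *Adora2a*, the main adenosine receptor of T cells, went from 10.5 ± 2.80 to 24.1 ± 2.52 FPKM (1.15, limma adjusted p = 0.00297), the same direction as *Entpd1* and *Nt5e*. *Adk* and *Ada*, whose enzymes remove adenosine, were lower, by -0.57 and -0.44 on the log2 scale, as was *Entpd6* (-0.40). *Enpp1*, at the median, did not pass (-0.21, limma adjusted p = 0.241). After T-cell scaling 1 gene of this list was called higher (*Adora2a*) and 1 lower (*Slc29a2*, -0.90, limma adjusted p = 0.0289). Over all genes tested, 518 were then called higher and 1203 lower. The estimates for *Adk* (-0.93), *Ada* (-0.77) and *Entpd6* (-0.76) were then further below 0 but missed the threshold (limma adjusted p from 0.0524 to 0.0788).

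Around *Lrrc32* and *Il10*, 12 of 13 genes of the latent TGF-β and IL-10 pathways were tested, with a median log2 fold change of 0.34. Of these, 5 were called higher and 0 lower, beside 14.1% and 13.7% of all genes. *Il10ra*, the ligand-binding chain of the IL-10 receptor, went from 12.3 ± 3.58 to 23.1 ± 3.80 FPKM (0.89, limma adjusted p = 0.0183). *Furin*, a protease that cleaves pro-TGF-β (0.63), and the receptor genes *Tgfbr1* (0.61) and *Tgfbr2* (0.51) were higher as well, while *Tgfb1* (0.18, limma adjusted p = 0.142) and *Stat3* (0.30, limma adjusted p = 0.222) did not pass. With the replicate block 9 genes of this list were called higher and 1 lower, beside 2705 and 2763 of all genes tested. After T-cell scaling 0 were called higher and 1 lower, beside 518 and 1203 of all genes. The scaled estimates for *Tgfb1* (-0.19) and *Stat3* (-0.06) were below 0.

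Relatives of the members did not move as 1 block. Of 8 further Ikaros, Foxp and Foxo genes, 7 were tested, with a median log2 fold change of -0.15. Of these, 2 were called higher and 1 lower, beside 14.1% and 13.7% of all genes. *Ikzf3*, encoding Aiolos, went from 46.5 ± 11.9 to 88.6 ± 6.22 FPKM (0.95, limma adjusted p = 0.00751), *Foxp4* was higher (0.51), *Foxo3* lower (-0.34), and *Ikzf1*, encoding Ikaros, did not pass (-0.15, limma adjusted p = 0.34). The calls for *Foxp4* (0.16) and *Foxo3* (-0.69) were lost after T-cell scaling. In the gelsolin family, to which CapG belongs, 4 of 6 genes were tested. *Flii* (0.45) and *Svil* (0.40) were higher, beside 14.1% of all genes. *Scin*, encoding the actin-severing protein scinderin, was lower, from 8.80 ± 3.17 to 2.99 ± 0.642 FPKM (-1.24, limma adjusted p = 0.00852). The call for *Flii* and that for *Svil* were lost after T-cell scaling. Under that scaling 0 genes of this family were called higher and 1 lower, beside 518 and 1203 of all genes tested.

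Lists of markers of other cells, which the negative selection is meant to remove, did not all move in the same direction. NK-cell, γδ and innate-like, dendritic-cell, macrophage, plasma-cell and B-cell sums were mostly higher in the enriched library of a mouse. Erythroid and megakaryocyte sums were lower in the enriched library of each mouse. The summed FPKM of 8 NK-cell genes lay between 92.2 and 262 in flow-through cells and between 243 and 509 in the enriched libraries. Of the 8 tested, 6 were called higher, beside 14.1% of all genes, the share for the other counts called higher here. *Tyrobp* (means 104 and 221 FPKM, limma adjusted p = 0.0525) and *Fcer1g* (49.0 and 108 FPKM, 0.0425) made up most of this sum. *Eomes* was not called (0.08, limma adjusted p = 0.659). For 9 genes of γδ and innate-like T cells the ranges were 34.6 to 62.1 and 59.7 to 114, with 6 of 8 tested called higher. For dendritic cells, some of which carry CD4 in mice, the sum of 9 genes went from 29.0 to 51.9 in the flow-through to 48.4 to 98.1 in the enriched libraries, with 7 of 9 called higher and 1 lower. The sum of 10 macrophage and monocyte genes was 464 to 1190 in flow-through cells and 1060 to 1880 in the enriched libraries, with 5 of 9 tested genes called higher. *Ly6c2* (means 563 and 736 FPKM) and *Lyz2* (197 and 506 FPKM, limma adjusted p = 0.0342) made up most of it. *Ly6c2*, *Csf1r* and *Cd14* were not called (limma adjusted p of 0.221, 0.339 and 0.498). The NK-cell and macrophage sums are thus set mainly by a few genes. Plasma-cell genes (339 to 1350 and 625 to 1630) and B-cell genes (25.9 to 67.4 and 45.8 to 96.3) had higher sums in the enriched library of each mouse. Called higher were 1 of 7 plasma-cell genes, near the share of all genes, and 2 of 6 B-cell genes. For each of these 6 lists the ranges of the fractions overlapped, and the γδ and innate-like sum of mouse 1 was lower in its enriched library (61.6 and 59.7). The counts called higher with the replicate block and after T-cell scaling were 7 and 4 for NK cells, 7 and 5 for γδ and innate-like T cells, 7 and 6 for dendritic cells, 8 and 3 for macrophages and monocytes, 7 and 1 for plasma cells, and 3 and 2 for B cells. Of all 12166 genes tested, 22.2% were called higher with the block and 518 genes after T-cell scaling.

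Of 7 erythroid genes, 3 (*Gata1*, *Tfr2* and *Car1*) were called lower in the enriched cells and 0 higher, beside 13.7% and 14.1% of all genes. With the replicate block 5 were called lower, beside 2763 of all 12166 genes tested. The erythroid sums were 825 to 2350 in flow-through cells and 176 to 1010 in the enriched libraries, which overlap. Megakaryocyte and platelet genes summed to 17.4 to 25.7 and 13.9 to 21.4, with 1 of 4 tested genes called lower, beside the same 13.7%. CD8 T-cell identity genes summed to 1270 to 2390 and 2360 to 2540, with 1 of 8 called higher, beside the same 14.1%, and overlapped as well. None of the marker genes in the table was at 0 in all 8 libraries. The dendritic-cell sum ranked the mice 1, 3, 2 and 4 from low to high in both fractions, the order also seen for *Foxp3* and *Cd4*. The summed FPKM of the CD4 helper genes and that of the gelsolin family had this order in both fractions too. The part that any of the marker cell types has in the values of the 10 genes was not tested.

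**Figure D4:**
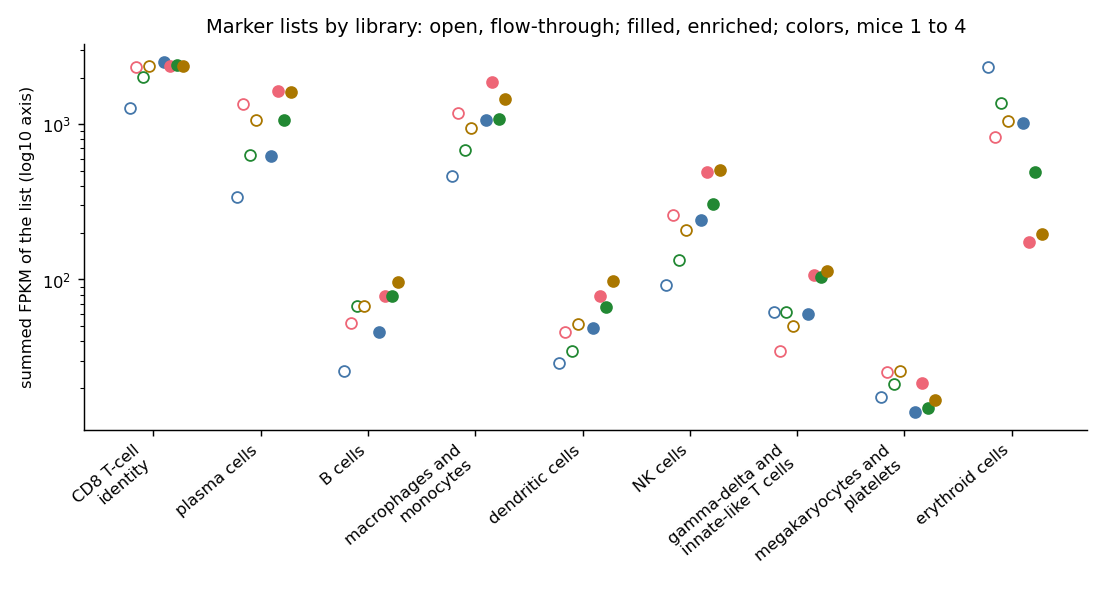
Summed FPKM of the marker genes of 9 cell types (vertical axis, log10) in each library, with open circles for flow-through, filled circles for enriched libraries and colors for mice 1 to 4 (blue, red, green and brown). NK-cell, dendritic-cell and macrophage sums of each mouse are higher in its enriched library, and the erythroid sums are lower.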

How the data were processed

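RNA was measured in 4 IL-18Rαhi-enriched and 4 flow-through libraries, 1 of each per mouse. Groups come from the sample labels, and the library number in them was taken as the mouse number. Per the labels and the study's methods, stranded mRNA libraries were sequenced as paired ends, mapped to mm10 with TopHat and summarised with Cufflinks 2.1.1, with correction for multi-mapping reads and fragment bias. The deposited values are FPKM, which the authors computed. Other options were defaults, which do not use strand, so genes that overlap on opposite strands are uncertain; the annotation release is not given in the sources used here. Low values showed no steps of whole fragments, so depth is unknown, and neither a count test nor a counting interval was used.

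The members and gene lists were chosen with earlier results of these data known. Coordinates are from GENCODE M21 (GRCm38), in which all 10 members were matched. The test was limma (version 3.58.1, R version 4.3.3) with a variance trend, applied to log2(FPKM + 1) of the 12166 genes whose mean reached 1 FPKM, with Benjamini-Hochberg adjustment at 0.05. Fold changes on this scale understate those of low genes. The fit had no block, as the study's methods name none. Each mouse gave both fractions, and the libraries were paired by the number in their labels, which was taken as the mouse. Deviations of same-numbered libraries from their group means correlated at 0.308 to 0.66. The mouse as replicate block is an alternative. For single values an exact permutation test, two-sided, ran over 70 arrangements of the libraries in Python 3.11.15; a sign-flip test over 4 mice cannot go below 0.125. T-cell scaling set each library to equal mean log2 FPKM of *Cd3d*, *Cd3e*, *Cd3g*, *Cd247*, *Cd2*, *Cd5*, *Lck*, *Cd8a* and *Cd8b1*. Other alternatives were a pseudocount of 0.1, no minimum level, a minimum of 5 FPKM, median-ratio scaling, each library left out, and, added after seeing the data, mouse 1 left out. The fit was tested on simulated data with known changes.

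All members are named. Of each list, the up to 4 genes of largest absolute fold change with an adjusted p under 0.05 and at least 5 FPKM in the higher fraction are named, with the gene nearest the list median, and beyond that rule, chosen after their values were seen, *Il1rl1*, *Izumo1r*, *Swap70*, *Il12a*, *Rgs1*, *Areg*, *Plagl1*, *Il21*, *Il5*, *Il13*, *Cxcr5* and *Tgfb1*. *Slc29a2*, *Il4*, *Tnfsf8*, *Ly6c2*, *Csf1r*, *Cd14* and *Eomes* were also named beyond the rule, after their values were seen. Genes compared with a member's profile had a mean level within 4 times of it; predicted genes and antigen receptor segments were left out, and the 5 nearest are named.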

Additional observations from a re-analysis of the deposited data

Results flagged for a closer look

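*Gpr83* in enriched library 4 was at 0.471 FPKM, apart from the other enriched libraries, which lay between 0.180 and 0.221 FPKM. Its distance to the nearest of them, divided by the range of the 4, exceeded Dixon's critical value at the 95% level. Of 20 groups examined (10 genes in 2 fractions), 1 was set apart in this way, and chance gives about 1 in 20. The value lay below all 4 flow-through libraries, and without that library the difference of mean log2(FPKM + 1) remained negative.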

How the results depend on the processing

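Of the 7 genes above the minimum level, 5 were called higher in the fit reported, 3 after T-cell scaling, 7 with the replicate block, 6 without mouse 1 and 3 to 5 when single libraries were left out (3 without flow-through library 3, enriched library 2 or enriched library 4). None was called lower, and without a minimum level 1 of 10 was (*Gpr83*). *Foxp3* stayed past the threshold in 15 of 15 alternatives (log2 fold change 1.51 to 2.14, limma adjusted p up to 0.0302), *Cd4* in 14 of 14 (1.12 to 2.33, up to 0.0486) and *Capg* in 15 of 15 (1.19 to 1.64, up to 0.00307). *Entpd1* and *Nt5e* each passed in 8 of 15, *Ikzf2* in 3 of 15 (with the replicate block, without enriched library 1 and without mouse 1) and *Ikzf4* in 1 of 14 (with the replicate block), with the same direction throughout. The replicate block (0.81 for *Ikzf2*, 0.54 for *Ikzf4*) changed no other member's call. The *Il10* difference of 0.0668 reversed after T-cell scaling (-0.0315) and ranged from -0.0825 to 0.224 when single libraries were left out; the cause was not tested. *Lrrc32* stayed higher (0.642 to 1.68) and *Gpr83* lower (-1.69 to -0.604). T-cell scaling, with a factor of 0.573 for flow-through library 1 and 0.913 to 1.19 for the others, moved the median of all genes from -0.02 to -0.35 and the share of higher among all calls from 50.8% (1720 higher, 1664 lower) to 30.1% (518 and 1203). Over all genes the replicate block called 2705 higher and 2763 lower, and leaving out single libraries 1107 to 1813 higher and 939 to 1780 lower. Without mouse 1, 1805 of 12234 genes were called higher and 1554 lower. Relative to the median of all genes after T-cell scaling, the log2 fold changes were 1.86 for *Foxp3*, 1.62 for *Cd4*, 1.54 for *Capg*, 1.03 for *Entpd1*, 0.86 for *Ikzf2*, 0.715 for *Ikzf4* and 0.623 for *Nt5e*. Of the 23 tested genes associated with regulatory T cells, 14 to 19 were called higher under the alternatives, beside 518 to 2705 of all genes. The number of fragments behind the 3 genes under 1 FPKM is unknown, and so is the precision of their values.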
